A study of Homo sapiens with 31 samples.

Results

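The binding sites of EVI1 and of CTBP2 were compared in untreated MUTZ3 cells that carry a doxycycline-inducible 4xPLDLS construct. The comparison rests on 4 peak lists, 2 of EVI1 and 2 of CTBP2, out of 31 samples in the study, of which 13 have a peak list. MUTZ3 is an acute myelomonocytic leukemia line with a 3q26 rearrangement that drives expression of EVI1. All 4 libraries came from cells with the genotype pCW-4xPLDLS at the 72 hour time point, without doxycycline (dox), so the lentiviral construct was present in the EVI1 and the CTBP2 samples alike and its peptide was not induced. The cells were transduced bulk populations and not clones. Chromatin was double-crosslinked with disuccinimidyl glutarate (DSG) before precipitation with an antibody against EVI1 or against CTBP2, and a single untreated input sample served both targets. The authors aligned reads to hg19 and called peaks in each library separately. Nothing states that replicates 1 and 2 of a target were separate cultures, so the spread between them may be technical.

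EVI1 is a zinc finger transcription factor encoded at the MECOM locus, and it is silent in most blood cells beyond the stem cell stage. Its zinc fingers form a proximal domain, which reads sequences close to the GATA motif, and a distal domain, which reads sequences close to the ETS motif. CTBP2 does not read DNA. It is a corepressor that is brought to chromatin by proteins with a PLDLS-like motif, among them EVI1 and the E-box readers ZEB1 and ZEB2, and it carries histone deacetylases and the demethylase KDM1A with it.

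A site was a merged interval in which both libraries of a target had a peak. A site of either target was called shared when it overlapped a site of the other target by at least 1 bp, and it was called EVI1-only or CTBP2-only when neither library of the other target had a peak there. The remaining sites, nearly all with a peak in 1 of the other target's libraries, were called intermediate. The sequences below are chosen examples from summits of EVI1-only and CTBP2-only sites and do not stand for all sites of these classes. Each runs 5′ to 3′ on the plus strand of GRCh37 over 81 bp centred on the summit of replicate 1, of EVI1 for EVI1-only sites and of CTBP2 for CTBP2-only sites, and capitals mark matches to the motifs named after them. GRIN2B was chosen for high rank, LARP1 after its values were seen because it holds the word ACAAGATAA of the proximal EVI1 domain, and GPR137B, MUC5B and CKMT2 for the E-box words of strong CTBP2-only sites.
GRIN2B: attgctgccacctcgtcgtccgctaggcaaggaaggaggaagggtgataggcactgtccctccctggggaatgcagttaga
LARP1: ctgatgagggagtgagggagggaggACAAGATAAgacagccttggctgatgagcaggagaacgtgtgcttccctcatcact
GPR137B: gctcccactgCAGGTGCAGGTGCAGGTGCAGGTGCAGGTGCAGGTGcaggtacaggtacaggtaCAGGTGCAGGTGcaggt
MUC5B: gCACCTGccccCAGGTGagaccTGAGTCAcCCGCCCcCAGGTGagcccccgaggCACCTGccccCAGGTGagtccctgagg
CKMT2: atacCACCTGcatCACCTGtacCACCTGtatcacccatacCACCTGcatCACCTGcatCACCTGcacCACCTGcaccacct

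The EVI1-only sites were at chr12:14115771-14115851 in an intron of GRIN2B, a glutamate receptor gene, and at chr5:154050560-154050640, 11946 bp before the start of LARP1, which encodes an RNA-binding protein. The LARP1 site had a fold of 8.25 and 6.70 in EVI1 replicates 1 and 2, at ranks 14683 and 27732 of the lists. The CTBP2-only sites were at chr1:236332465-236332545 in an intron of GPR137B, at chr11:1280357-1280437 in an intron of the mucin gene MUC5B, and at chr5:80465768-80465848 in an intron of RASGRF2 with CKMT2 as the nearest gene start. In GPR137B, MUC5B and CKMT2 the capitals are mostly CACCTG or its reverse complement CAGGTG, the E-box that ZEB1 and ZEB2 read. The words recur there in repeated units, and the placement of reads at these sites was not tested. The MUC5B site also held a match to the AP-1 word TGANTCA and another to the GC box GGGCGG.

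The 4 lists did not fall into pairs by target alone, and this bears on every comparison below. At shared regions, EVI1 replicate 2 and CTBP2 replicate 1 had higher fold enrichment where the GC content was higher, with Spearman's rho of 0.190 and 0.284 across 29574 regions, whereas EVI1 replicate 1 and CTBP2 replicate 2 had lower fold there, with rho of -0.0974 and -0.160. The median fold at gene starts relative to that elsewhere split the libraries in the same way, at 1.1 and 1.19 against 0.928 and 0.906. CTBP2 replicate 1 also ranked less like the dox-treated CTBP2 libraries than CTBP2 replicate 2 did. Across 6546 regions called in all lists compared, its fold ranked with those of the dox-treated CTBP2 libraries with rho of 0.325 and 0.232. CTBP2 replicate 2 reached 0.517 and 0.552. With the dox-treated EVI1 libraries CTBP2 replicate 1 had rho of 0.383 and 0.264, and CTBP2 replicate 2 had 0.308 and 0.371. For CTBP2 replicate 1 the values with the 2 targets thus overlapped, and for CTBP2 replicate 2 those with CTBP2 were higher. EVI1 replicates 1 and 2 ranked with the dox-treated EVI1 libraries with rho of 0.66 and 0.68, and of 0.67 and 0.55. These correlations describe sites of the same libraries that share the input and the base composition of the genome. Why the libraries split in this way was not tested, and the shares, ranks, distances and motif counts of the classes were recomputed with each library left out.

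The binding of EVI1 and CTBP2 overlapped at most sites that were called in both replicates of a target. Of the 40449 EVI1 sites, 30707 or 75.9% were shared (95% Wilson interval 75.5 to 76.3), 6996 or 17.3% were intermediate and 2746 or 6.79% (6.55 to 7.04) were EVI1-only. Of the 37227 CTBP2 sites, 30705 or 82.5% were shared (82.1 to 82.9), 4196 or 11.3% were intermediate and 2326 or 6.25% (6.01 to 6.5) were CTBP2-only. Wilson intervals here and below cover counting error over sites alone. Most intermediate EVI1 sites had their CTBP2 peak in replicate 1 (5490 sites) and fewer in replicate 2 (1433 sites), and most intermediate CTBP2 sites had their EVI1 peak in replicate 2 (2805 sites) rather than replicate 1 (1331 sites). Shared sites were wider, with a median of 821 bp for EVI1 and 805 bp for CTBP2, than EVI1-only sites at 420 bp and CTBP2-only sites at 388 bp.

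Counted by library, the overlap was lower and the EVI1 libraries differed. A site of the other target lay at 66.9% of the peaks of EVI1 replicate 1 and 48.2% of those of EVI1 replicate 2, a mean of 57.5% ± 13.2 (SD, n = 2). For CTBP2 it lay at 61.1% of the peaks of replicate 1 and 63.8% of those of replicate 2, a mean of 62.5% ± 1.95 (SD, n = 2). A peak was also found in the other replicate of the same target for 83.9% and 57.1% of EVI1 peaks and for 60.9% and 73.1% of CTBP2 peaks. The first count needs a peak in both libraries of the other target and the second a peak in 1 library, and the first was the lower in all libraries but CTBP2 replicate 1, where they were 61.1% and 60.9%. With each library left out in turn the shared share ranged from 48.2% to 89.6% of EVI1 sites and from 61.1% to 90.1% of CTBP2 sites, the EVI1-only share from 10.4% to 32.2% and the CTBP2-only share from 9.90% to 21.6%. A target with 1 library left counts every peak of it as a site.

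As whole lists, EVI1 and CTBP2 did not differ beyond the spread between replicates. The median peak width was 455 and 434 bp in EVI1 replicates 1 and 2 and 440 and 386 bp in CTBP2 replicates 1 and 2, a difference of -31.5 bp for CTBP2 (exact two-sided permutation test, p = 0.667). The median fold enrichment over input was 6.03 and 5.58 for EVI1 and 6.03 and 5.51 for CTBP2 (exact permutation test, p = 0.667). The share of peaks within 1 kb of a gene start was 21.7% and 16.4% for EVI1 and 19.2% and 19.9% for CTBP2, means of 19.1% ± 3.73 and 19.5% ± 0.533 (SD, n = 2 each; exact permutation test, p = 1.0). In each of these the values of the targets overlapped or lay within the spread of the replicates, and with 2 libraries against 2 the smallest p the test allows is 0.33.

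The stronger a site, the more often it was shared. Sites were split by their fold into 5 groups of equal size. In the strongest group 97.7% and 98.8% of EVI1 sites were shared when ranked by replicates 1 and 2, against 54.5% and 48.0% in the weakest. For CTBP2 sites the shares were 98.8% and 95.8% in the strongest group and 56.0% and 68.0% in the weakest. The share of EVI1-only sites rose from 0.198% and 0.0494% in the strongest group to 13.6% and 18.0% in the weakest, and that of CTBP2-only sites from 0.215% and 0.537% to 17.8% and 12.9%. Median fold was 7.47 and 9.62 at shared EVI1 sites in replicates 1 and 2 against 4.90 and 5.19 at EVI1-only sites. At CTBP2 sites it was 8.92 and 6.71 when shared and 5.12 and 4.74 when CTBP2-only. The best rank of an EVI1-only site was 2514 in replicate 1 and 3488 in replicate 2, so none was among the 1000 strongest peaks of either library, and the best rank of a CTBP2-only site was 942 and 1017. Sites of 1 target alone were thus weak sites for the most part, and the part of the calling threshold in this was not tested. A peak below that threshold counts as no peak here, so an absent call does not show that the other protein was absent.

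**Figure D1:**
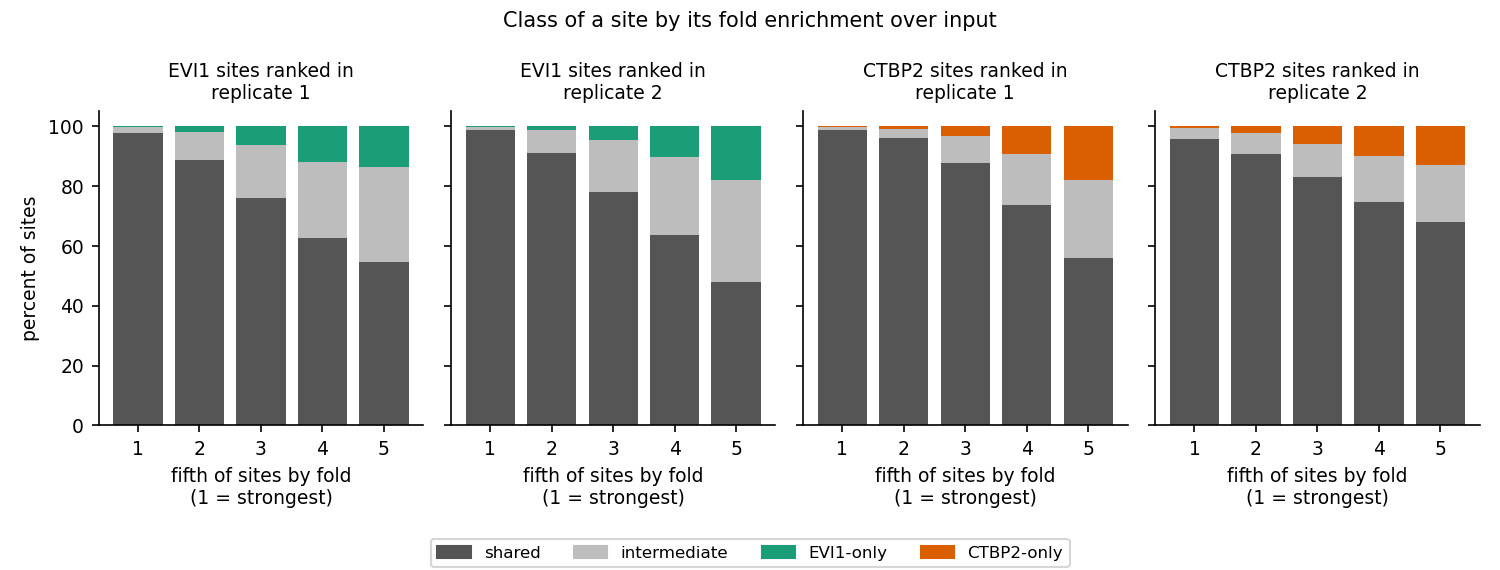
Percent of EVI1 sites (left pair of panels) and CTBP2 sites (right pair) that were shared, intermediate or called for 1 target only, in 5 equal groups ordered by fold in the library named above each panel, from the strongest (1) to the weakest (5). The shared share falls from between 95.8% and 98.8% in the strongest group to between 48.0% and 68.0% in the weakest.

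The order of sites by strength was similar for EVI1 and CTBP2, and the likeness between targets reached that between CTBP2 replicates. Overlapping shared sites were merged into 29985 regions, and the fold of the strongest peak of each library in a region was ranked. Spearman's rho was 0.760 between the EVI1 replicates and 0.636 between the CTBP2 replicates. Of the 4 pairs of an EVI1 with a CTBP2 library, EVI1 replicate 2 with CTBP2 replicate 1 had a rho of 0.694 and EVI1 replicate 1 with CTBP2 replicate 2 a rho of 0.64, both above the value of the CTBP2 replicates. The pairs of equal number were lower, at 0.579 for replicates 1 and 0.545 for replicates 2. The mean over the 4 pairs was 0.615. At regions within 1 kb of a gene start (8235 regions) the 4 values ran from 0.587 to 0.647, and elsewhere (21412 regions) from 0.540 to 0.706. A rank by -log10 p in place of fold gave a mean of 0.650.

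The summits of EVI1 and CTBP2 lay close to each other at shared regions. Their median distance was 48 bp for EVI1 replicate 2 with CTBP2 replicate 1, 54 bp for replicates 1, 58 bp for EVI1 replicate 1 with CTBP2 replicate 2 and 66 bp for replicates 2, a mean of 56.5 bp. The summits of the EVI1 replicates were a median of 48 bp apart and those of the CTBP2 replicates 55 bp apart. Between the targets 46.3% of summits lay within 50 bp of each other on average, against 51.6% between EVI1 replicates and 47.2% between CTBP2 replicates. The distances between targets therefore fell within or next to the range between replicates of 1 target. Among the 1000 strongest regions of each library, 684 were common to the EVI1 replicates and 556 to the CTBP2 replicates, and between 401 and 518 were common to an EVI1 and a CTBP2 library. In this measure alone all 4 pairs of different targets were below both pairs of replicates.

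Sites shared by EVI1 and CTBP2 were near gene starts far more often than sites of either target alone. The summit lay within 1 kb of a protein-coding gene start at 27.8%, 28.0%, 28.0% and 27.6% of 29647 shared regions when read from EVI1 replicates 1 and 2 and CTBP2 replicates 1 and 2 (mean 27.8% ± 0.203, SD, n = 4). It did so at 88 of 2611 EVI1-only sites in either replicate, or 3.37% (95% Wilson interval 2.74 to 4.13), and at 100 and 98 of 2321 CTBP2-only sites, or 4.31% and 4.22%. The intervals of shared and unshared sites did not meet. The contrast was present at like strength. In each of the 5 strength groups and each library, between 14.9% and 33.8% of shared sites lay at gene starts, against at most 6.64% of the sites of 1 target. When the starts of every protein-coding transcript were used, the shares were 35.6% for shared, 6.40% for EVI1-only and 7.37% for CTBP2-only sites. The share at EVI1-only sites rested in part on CTBP2 replicate 1, and without that library it was 13.6%. Without CTBP2 replicate 2 it was 2.77%, and the CTBP2-only share was 7.03% without EVI1 replicate 2 and 7.20% without CTBP2 replicate 2, while the shared share stayed between 26.2% and 26.8% in all 4 cases.

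The median distance to a gene start was 12167 bp for shared regions, 22594 bp for CTBP2-only and 32555 bp for EVI1-only sites. EVI1-only sites were over 100 kb from a gene start in 20.9% of cases, CTBP2-only sites in 14.2% and shared regions in 12.5%. Away from gene starts the classes lay in like parts of the annotation, with 44.5% of shared, 43.7% of EVI1-only and 48.5% of CTBP2-only sites in introns and 45.3%, 48.3% and 45.4% in intergenic sequence. Most unshared sites lay over 1 kb from a peak of the other target, but 24.1% of EVI1-only and 26.7% of CTBP2-only sites lay within 1 kb of one. The median gap to the nearest such peak was 3720 bp for EVI1-only and 3079 bp for CTBP2-only sites.

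Libraries that did not define the classes gave a check of how far the classes carried over to other libraries. Shared regions were found again most often, with an EVI1 peak in 94.2% and 89.8% of cases in the 2 dox-treated EVI1 libraries of the same cells and in 46.8% in unmodified MUTZ3 cells. A CTBP2 peak was present at 58.5% and 53.2% of shared regions in dox-treated cells, in which the 4xPLDLS peptide that competes for CTBP2 is induced, at 36.1% in unmodified MUTZ3 and at 68.8% in MOLM1, another EVI1-expressing leukemia line. The lists differ in length and in peak width. Median width was 209 and 231 bp for EVI1 and CTBP2 in unmodified MUTZ3 and 179 bp in MOLM1. In the untreated inducible cells it ran from 386 to 455 bp. The study used single-end and paired-end sequencing, and unmodified MUTZ3 has inputs of single and of double crosslinks. The dox-treated lists held 53806 and 47599 peaks for EVI1 and 24588 and 23878 for CTBP2. The CTBP2 lists of unmodified MUTZ3 and MOLM1 held 16836 and 64569 peaks. The parts of cells, protocol, peak width and list length in the shares were not tested. At EVI1-only sites an EVI1 peak was present in 57.6% and 41.4% of cases in dox-treated cells and a CTBP2 peak in 2.77% and 2.44%. In unmodified cells, with lists of 21505 and 16836 peaks, these shares were 8.85% for EVI1 and 2.22% for CTBP2, and 18.5% had a CTBP2 peak in MOLM1.

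CTBP2-only sites carried over less clearly. In dox-treated cells a CTBP2 peak was present at 12.3% and 12.9% of them (95% Wilson intervals 11.0 to 13.6 and 11.6 to 14.3), and an EVI1 peak at 16.8% and 12.7% (15.3 to 18.4 and 11.4 to 14.1). The shares of the 2 targets thus overlapped. In unmodified cells, where the library lists are shorter, a CTBP2 peak was present at 7.14% and an EVI1 peak at 1.38% of CTBP2-only sites. In MOLM1, whose list of 64569 peaks is longer, a CTBP2 peak was present at 25.9%. In cells with retroviral 4xPLASS, a control peptide, it was present at 2.84% and 14.5% in the 2 libraries, whose lists hold 6688 and 31310 peaks. Among the weakest of the 5 groups by mean rank, CTBP2-only sites had a CTBP2 peak in 7.80% and 8.03% of cases in dox-treated cells, against 24.3% and 19.3% of shared sites of like strength. For EVI1 the same comparison gave an EVI1 peak at 48.5% and 31.6% of EVI1-only and at 79.0% and 67.8% of shared sites. With each of the 4 libraries left out in turn, the share of EVI1-only sites with an EVI1 peak in dox-treated cells ranged from 10.1% to 70.1%, the low end without EVI1 replicate 1, and that with a CTBP2 peak from 0.482% to 9.81%. For CTBP2-only sites the ranges were 2.94% to 24.9% for CTBP2 peaks and 5.79% to 31.6% for EVI1 peaks.

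The sequence at the summit differed between the classes. Windows that reach 100 bp to either side of the summit were searched on both strands for 16 short words known from transcription factor motifs, and the share of all windows of that length in the genome that hold the word is given for reference. The E-box CACCTG, which ZEB1 and ZEB2 read, was present in 43.3% of CTBP2-only windows (95% Wilson interval 41.3 to 45.3), in 21.0% of EVI1-only windows (19.5 to 22.6) and in 19.6% of shared windows, against 14.7% of the genome. At least 3 matches lay in 7.73% of CTBP2-only windows, as in the repeated units of GPR137B, MUC5B and CKMT2 above, and in 0.463% of EVI1-only and 0.815% of shared windows. How many of these windows hold repeated units of this kind was not counted. The GATA word AGATAA went the other way, with 11.4% of EVI1-only (10.2 to 12.7), 7.81% of shared and 3.24% of CTBP2-only windows (2.59 to 4.04), against 14.8% of the genome. The word ACAAGATAA of the proximal EVI1 domain, which contains AGATAA, was present in 18 or 0.694% of EVI1-only and 48 or 0.162% of shared windows and in 0 of 2317 CTBP2-only windows, which allows a share of up to 0.129% (3 counts). In the genome its share was 0.279%, above that of shared windows. The word GAAGATGAG of the distal domain was in 1.31%, 0.575% and 0.0863% of EVI1-only, shared and CTBP2-only windows and in 0.304% of the genome. With each library left out in turn both words remained more frequent in EVI1-only windows, at 0.213% to 0.646% and 0.698% to 1.02%, than in CTBP2-only windows, at 0.0386% to 0.123% and 0.193% to 0.527%. Without EVI1 replicate 1 the proximal word was in 0.213% of EVI1-only windows, under the share of the genome.

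The GC box of promoters and the longer ETS word were most frequent in the shared class. The GC box GGGCGG was in 27.4% of shared windows, 8.64% of EVI1-only and 9.24% of CTBP2-only windows, and the ETS word CCGGAAG in 7.75%, 1.5% and 1.42%. At shared regions over 1 kb from a gene start the shares were lower, at 17.9% and 4.86%. With libraries left out in turn the GC box stayed between 26.5% and 28.0% in shared windows. At EVI1-only sites it moved to 18.8% without CTBP2 replicate 1 and 15.5% without EVI1 replicate 1, and at CTBP2-only sites to 4.54% without CTBP2 replicate 1, 14.6% without EVI1 replicate 2 and 15.6% without CTBP2 replicate 2. The CCGGAAG share at EVI1-only sites was 3.24% without CTBP2 replicate 1, and at CTBP2-only sites it was 2.26% without EVI1 replicate 2. The shorter ETS word GGAAGT, the reading of many blood cell ETS proteins, was in 29.5%, 19.1% and 24.1%, each above the 10.4% of the genome, but without CTBP2 replicate 1 it was in 34.2% of CTBP2-only windows against at most 29.7% of shared windows with any library left out. The SMAD word CAGAC was in 40.4% of shared, 47.6% of EVI1-only and 32.6% of CTBP2-only windows. Shared windows had a mean GC content of 59.0% against 54.4% and 53.8%, and the genome had 40.9%. Words of RUNX (TGTGGT, 18.9%, 20.8% and 20.0%), of CEBP factors (TTGCNNAA, 6.24%, 6.21% and 6.86%) and of AP-1 (TGANTCA, 6.57%, 6.98% and 7.03%) differed by less than 2 percentage points between shared, EVI1-only and CTBP2-only windows. Without CTBP2 replicate 1 the CEBP word was in 10.3% of CTBP2-only windows. A match is a description of letters and does not show that a factor was bound.

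The E-box and GATA contrast between EVI1-only and CTBP2-only sites depended on which libraries defined them. Without CTBP2 replicate 1, CACCTG was in 24.8% of CTBP2-only and 23.5% of EVI1-only windows, and the GATA word was more frequent in CTBP2-only windows, at 10.6% against 8.07%. Without EVI1 replicate 1, CACCTG was in 35.8% of CTBP2-only and 28.7% of EVI1-only windows and the GATA word in 5.22% and 5.19%. Without EVI1 replicate 2 the CACCTG shares were 39.1% and 20.5%, and without CTBP2 replicate 2 they were 45.0% and 19.4%. Over its whole peak list, CTBP2 replicate 1 had CACCTG at 30.3% of summits and AGATAA at 5.02%, and CTBP2 replicate 2 had them at 21.7% and 8.60%. EVI1 replicates 1 and 2 had CACCTG at 20.0% and 25.5% and AGATAA at 8.96% and 5.71%. The values of the 2 targets thus overlapped for both words, and CTBP2 replicate 1 and EVI1 replicate 2, the libraries with higher fold at higher GC content, had the higher CACCTG and the lower AGATAA share. The part of this in the contrast was not tested.

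Sites of other libraries gave the same order for CACCTG and the opposite order for the GATA word. They were classed in the same way in dox-treated cells, whereas unmodified cells have 1 library a target and each of its peaks counted as a site. In dox-treated cells CACCTG was in 25.5% of 581 CTBP2-only windows (22.1 to 29.2) and in 19.6% of EVI1-only windows (18.9 to 20.2), and AGATAA in 12.9% and 8.20%. In unmodified MUTZ3 cells CACCTG was in 18.8% of CTBP2-only and 15.6% of EVI1-only windows and AGATAA in 12.1% and 9.84%. At shared regions of the untreated inducible cells, CACCTG rose with the rank of CTBP2 relative to EVI1, from 16.6% in the group of 5 with the lowest relative CTBP2 rank to 24.8% in the highest, and the rise was seen in all 4 pairs of libraries, with the smallest from 18.1% to 20.7%. AGATAA fell from 9.55% to 5.15% across the same groups, but rose from 6.30% to 9.70% for EVI1 replicate 2 with CTBP2 replicate 2.

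A count of all words of 6 letters had the GATA word near 1 end and words of repeats at the other. Of 1423 words found in at least 5% of a class, ACTATC had the highest ratio of the EVI1-only to the CTBP2-only share, at 4.15. It was followed by the GATA word AGATAA at 3.51 and then by a word close to the first, ACTGTC, at 3.09. At the other end GATTAC had a ratio of 0.292. The word ATTAGC had a ratio of 0.293, and so did the word CTACTA, and all 3 are found in Alu repeats, a primate family of interspersed elements. No repeat annotation was used here. At least 1 of these 3 words was present in 29.9% of CTBP2-only windows, as against 11.3% of EVI1-only and 8.35% of shared windows, and the word GATCACCTG, in which the E-box follows an Alu-like GAT, in 7.16%, 0.733% and 0.358%. With the windows that hold any of the 3 words set aside, CACCTG was in 36.6% of CTBP2-only windows, 20.1% of EVI1-only and 19.4% of shared windows. The 3 words were taken from these same classes, and a window without them can hold other repeat sequence. These values therefore do not give the share of CACCTG outside repeats. They were not recomputed without CTBP2 replicate 1.

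By nearest start, 12921 of 20163 protein-coding genes, or 64.1%, had at least 1 shared region, 2103 or 10.4% had an EVI1-only site, 1991 or 9.87% had a CTBP2-only site, and 8147 or 40.4% had a shared region within 1 kb of the start. Genes with a site of 1 target were mostly genes with shared regions as well, in 83.5% of EVI1-only and 87.4% of CTBP2-only cases. Both kinds were present at 456 genes, or 21.7% of the genes with EVI1-only and 22.9% of those with CTBP2-only sites. The genes with the most shared regions included TMEM121, the protein-coding gene next to the immunoglobulin heavy chain cluster, with 65, and ID2, an inhibitor of basic helix-loop-helix factors, with 38. The most EVI1-only sites were at RP11-685N3.1 with 9, REXO1L1 with 8 and ZNF565 with 7. These counts go by nearest start and can reach far from the gene. The most CTBP2-only sites were at BCOR, a corepressor of BCL6 that is mutated in leukemia, with 5, and at ADGRL1 and C8orf90 with 4 each. REXO1L1 and ZNF565 had no shared region and BCOR had 33, of which 10 lay within its gene model, as did 0 of its CTBP2-only sites. REXO1L1 lies in an array of near-identical copies, so the placement of reads there is uncertain.

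Transcription factors of stem and progenitor cells had shared regions at 18 of 20 genes (90%) and shared regions at the start of 15 (75%), beside 64.1% and 40.4% of all genes. EVI1-only sites were found at 5 and CTBP2-only sites at 5 of these 20 genes, beside 10.4% and 9.87% of all genes. The median was 4 shared regions a gene, against 1 over all genes. ETV6, an ETS repressor needed by stem cells, had the most with 15, and the strongest lay in its intron with a fold of 32.2 and 48.3 for EVI1 and 51.1 and 52.1 for CTBP2 in replicates 1 and 2. MECOM, which encodes EVI1 itself, had 4, and the strongest had a fold of 50.7 and 68.3 for EVI1 and 30.8 and 25.8 for CTBP2. TAL1, a stem cell helix-loop-helix factor, had 10 regions, and FLI1, an ETS activator, had 8. The strongest of TAL1, 20113 bp past its start, had 22.9 and 39.7 for EVI1 and 22.7 and 18.3 for CTBP2. GATA2, which supports stem cell growth, had 4 shared regions and 1 EVI1-only site, with a fold of 8.19 and 13.1 for EVI1 and 16.0 and 7.79 for CTBP2. RUNX1 had no shared region by nearest start, but 17 shared regions lay within its gene model, which spans 1216868 bp. NFE2, a factor of megakaryocytes, had 2 CTBP2-only sites, and its strongest shared region had a fold of 10.3 and 18.1 for EVI1 and 8.16 and 3.45 for CTBP2.

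Myeloid differentiation genes had shared regions at 17 of 22 genes (77.3%) and at the start of 9 (40.9%), the latter close to the 40.4% of all genes, of which 64.1% had a shared region. EVI1-only sites were found at 3 and CTBP2-only sites at 8 of these 22 genes, beside 10.4% and 9.87% of all genes. MPO, the myeloperoxidase of granules, had 1 region 919 bp before its start, with a fold of 36.7 and 48.8 for EVI1 and 27.8 and 17.9 for CTBP2. CSF1R, the macrophage growth factor receptor, had 5, the strongest with 21.4 and 44.7 for EVI1 and 33.1 and 24.5 for CTBP2. CEBPA, the master factor of granulocytes, had 5, the strongest 28248 bp past its start. The fold of this region was 24.2 and 32.6 for EVI1, at ranks 1233 and 1399 of the lists, and 11.0 and 9.65 for CTBP2, at ranks 10645 and 8796. IRF8, a factor of monocytes and dendritic cells, had 5 shared regions and 3 CTBP2-only sites, the most CTBP2-only sites of this list. None of these lay within its gene model, and its strongest shared region was 84654 bp past its start. CD14, a monocyte receptor, had a strongest region 21449 bp past its start, with 11.5 and 14.4 for EVI1 and 12.9 and 29.3 for CTBP2. The granule protease genes PRTN3, AZU1 and CTSG had no shared region, and ELANE had 1 EVI1-only site and no shared region. Values of single regions rest on 2 libraries a target whose folds are not normalized to each other, so the values of the targets stand side by side and were not tested.

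Erythroid and megakaryocyte genes had shared regions at 11 of 16 genes (68.8%), near the 64.1% of all genes, and at the start of 3 (18.8%), under the 40.4% of all genes. ITGA2B, the platelet integrin CD41, had 1 region at its start, with a fold of 19.2 and 20.5 for EVI1 and 21.1 and 20.3 for CTBP2. ZFPM1, the GATA cofactor, had 9. The globin genes HBB and HBG1 and the platelet genes PF4 and GP1BA had none by nearest start, although 1 shared region lay within the gene model of GP1BA.

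Genes of the CTBP complex and of proteins with a PLDLS motif had shared regions at 14 of 16 genes (87.5%) and at the start of 8 (50.0%), beside 64.1% and 40.4% of all genes, and the median was 1.5 regions a gene, against 1 over all genes. BCOR led with 33, RREB1, a zinc finger factor, had 16 and ZNF217, a zinc finger partner of the CTBP complex, had 11. ZEB2, an E-box reader, had 6, and the strongest, 61860 bp before its start, had a fold of 41 and 47.3 for EVI1 and 25.9 and 22.8 for CTBP2. ZEB1 had 4, with 17.2 and 24.7 for EVI1 and 18.2 and 18.0 for CTBP2 at the strongest, 75377 bp before its start. The CTBP2 gene had 2, of which the stronger lay 25 bp before its start with 12.5 and 21.0 for EVI1 and 20.2 and 7.27 for CTBP2. CTBP1 had 1, and EHMT2 and RBBP4 had none by nearest gene start. CTBP2-only sites were found at 6 and EVI1-only sites at 3 of these 16 genes, beside 9.87% and 10.4% of all genes.

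Genes of the TGF-beta and SMAD pathway had shared regions at 16 of 16 genes (100.0%) and at the start of 14 (87.5%), beside 64.1% and 40.4% of all genes, with a median of 4.5 regions against 1. TGFB1, the ligand, had a region at its start with a fold of 23.4 and 30.2 for EVI1 and 24.1 and 14.5 for CTBP2. The receptor genes TGFBR1, TGFBR2, BMPR2 and ACVR1 each had 1 at the start. SMAD7, an inhibitor of receptor signals, had 33 shared regions and SMAD3, a receptor-activated SMAD, had 17. SMAD6, another inhibitor, had 10 with 4 EVI1-only sites and no CTBP2-only site. SKI, a corepressor of SMADs, had 7, the strongest in its intron with 30.6 and 46.5 for EVI1 and 26.9 and 18.9 for CTBP2. ID2 had 38, the strongest 163208 bp before its start with 43.4 and 70.2 for EVI1 and 29.4 and 26.1 for CTBP2. LTBP1, which stores the latent ligand, had the highest rank of CTBP2 relative to EVI1 in the list, by 31.2 points on a scale of 100 over all shared regions, with 8.01 and 14.3 for EVI1 and 21.8 and 17.1 for CTBP2. EVI1-only sites were found at 8 and CTBP2-only sites at 4 of these 16 genes, beside 10.4% and 9.87% of all genes.

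Of 9 genes known from the literature as EVI1 targets, 8 had shared regions (88.9%) and 6 had them at the start (66.7%), beside 64.1% and 40.4% of all genes. ADGRG1, a surface receptor of stem cells, had 7, and ITGA6, an integrin, had 7. The strongest of ADGRG1, 19032 bp before its start, had a fold of 21.5 and 29.8 for EVI1 and 24.4 and 16.3 for CTBP2. ERG, an ETS factor of stem cells, had 9 shared regions, 1 EVI1-only and 2 CTBP2-only sites. The cytosolic ribosomal protein genes, which are active in every cell, had shared regions at 58 of 81 genes (71.6%) and at the start of 50 (61.7%), with a median of 1 region, against 64.1%, 40.4% and 1 over all genes, so high shares at gene starts were not limited to blood cell regulators.

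Sites among the 5 strongest of each class, by the sum of ranks, showed how far the classes differed in strength. A shared site in an intron of FABP6, a bile acid binding protein gene, had a fold of 85.3 and 123 for EVI1 and 64.4 and 61.2 for CTBP2, and another, 27512 bp before the start of GTF3C5, a gene of the RNA polymerase III machinery, had 83.7 and 134 for EVI1 and 66.9 and 51.0 for CTBP2. The strongest EVI1-only site, in an intron of the cohesin loader gene NIPBL, had 15.5 and 22.3. It lay 74173 bp from the nearest CTBP2 peak of the untreated inducible cells. A CTBP2 peak was called there in MOLM1, in unmodified MUTZ3 and in 1 library with the control peptide, but in neither dox-treated library. An EVI1 peak was called there in the 3 other EVI1 libraries. The summit sequence of this site was mostly repeats of TG and CG, and the placement of reads there was not tested. The EVI1-only site of GRIN2B had 9.38 and 20.3, lay 276288 bp from the nearest CTBP2 peak and had an EVI1 peak in both dox-treated libraries and no CTBP2 peak in any other library. The CTBP2-only site of GPR137B had 23.5 and 14.9 and lay 8410 bp from the nearest EVI1 peak. A CTBP2 peak was called there in both dox-treated libraries. None was called in MOLM1, in unmodified MUTZ3 or in either library with the control peptide. The CTBP2-only site of MUC5B had 25.8 and 12.7 and a CTBP2 peak in all 6 other CTBP2 libraries and no EVI1 peak in the 3 other EVI1 libraries. The CTBP2-only site of CKMT2 had 18.5 and 9.43 and a CTBP2 peak in all 6 other CTBP2 libraries, and an EVI1 peak was called there in dox replicate 1.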

How the data were processed

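ChIP-seq peak lists of EVI1 and CTBP2 from 4 libraries were compared, and 9 further lists of the study served as reference. The authors aligned reads to hg19 (GRCh37) with Bowtie 1.1.1 and called peaks in each library against a matched input with MACS2 2.1.2 under default settings, as given in the study's methods and the submitters' processing notes. The deposited lists give for each peak a fold enrichment over the local background (a ratio), as made by MACS2. The deposited lists also give a -log10 p and a -log10 q from the authors' peak calls. The display score deposited by the authors was not used. Peaks were called per library without pooling. Read numbers are not part of these lists, and depth is therefore unknown.

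Peaks of 1 target were merged where they overlapped by at least 1 bp, and a merged interval with a peak of both libraries was a site. Fold was ranked within a library for the comparison of sites, and only its median over a whole list was compared between targets as a level. Gene starts were those of 20163 protein-coding genes of GENCODE release 44 mapped to GRCh37, and a summit within 1000 bp of a start counted as at the start. Gene distances and motifs used the autosomes and both sex chromosomes. Of 533140 peaks in all lists, 527025 lay on sequences of the reference used. Motifs were counted on both strands over 100 bp on either side of the summit of replicate 1 (that of EVI1 at shared regions). Shares of sites carry 95% Wilson intervals, values by library an SD, and values by library were compared between targets with a two-sided permutation test that was exact (smallest p 0.33). Correlations across sites are descriptions without a p. Scripts used Python 3.11.15, numpy 2.4.6, pandas 2.3.3, scipy 1.17.1 and pysam 0.24.0 and were tested on simulated data. The members, gene lists, motifs and tests were chosen with earlier results of these data known. Named sites are the 5 of each class with the smallest sum of fold ranks on chromosomes 1 to 22 and X, with no site of chromosome 8 among them. Named genes are members of the lists and the 3 genes with the most sites of a class. Some of these sites and genes are not reported here. Alternatives were stricter q or fold thresholds, other overlap and summit rules, lists of equal length, sites of either library, other gene starts, genes within 50 kb only, narrower windows, windows without repeat words and, for motifs and other libraries, each library left out in turn (chosen after seeing the data), ranks by -log10 p, each library left out in turn for the other values and pairing by replicate number.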

Additional observations from a re-analysis of the deposited data

How the results depend on the processing

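Of 423 alternative values, 191 counted as unchanged, 226 as moved and 6 changed sign. Site shares, ranks, distances and promoter shares of the classes were judged by the SD between libraries, and differences between whole lists by their direction. For site shares this SD came from the peaks of each library. It was 13.2 points for shared EVI1 sites, so smaller shifts counted as unchanged. For the promoter share of EVI1-only sites it was 0.0, so any other value counted as moved. The counts of unchanged and moved values depend on these yardsticks. Motif shares and peaks in other libraries were judged by the Wilson interval of the main value, which covers counting error over sites alone. Gene shares were judged by a fixed range of ratios. Shared shares moved by less than the spread between libraries under a 50% overlap rule or standard chromosomes only. With libraries left out in turn, shared EVI1 sites ranged from 48.2% to 89.6%, shared CTBP2 sites from 61.1% to 90.1%, EVI1-only sites from 10.4% to 32.2% and CTBP2-only sites from 9.90% to 21.6%. Promoter shares ranged from 26.2% to 26.8% for shared, 2.77% to 13.6% for EVI1-only and 3.20% to 7.20% for CTBP2-only sites, the log2 ratio of peak numbers (-0.06 with all libraries) from -0.28 to 0.21, the difference in promoter share of the lists (0.481 points) from -2.15 to 3.12, and rank agreement from 0.590 to 0.657. The sign of the peak number ratio turned without EVI1 replicate 2 (0.21) and without CTBP2 replicate 2 (0.01), and that of the promoter difference without EVI1 replicate 2 (-2.15).

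With -log10 q of at least 5, CTBP2-only sites were 5.66%, promoter shares were 29.6%, 5.07% and 5.43% for shared, EVI1-only and CTBP2-only sites and the promoter difference of the lists was -0.206 points. With fold of at least 5, shared CTBP2 sites were 78.3%, CTBP2-only sites 6.91%, the summit distance 48.5 bp, promoter shares 9.09% and 9.52% for EVI1-only and CTBP2-only sites and the list difference -0.388 points. With lists of equal length (51389 peaks), CTBP2-only sites were 6.90%, promoter shares 28.4%, 7.32% and 5.41% and the list difference -0.399 points. With summits within 200 bp, shared sites were 55.0% for EVI1 and 59.7% for CTBP2 and CTBP2-only sites 9.71%. With sites called in either library, shared CTBP2 sites were 70.6%, EVI1-only sites 32.7%, CTBP2-only sites 29.4% and promoter shares 20.1%, 3.54% and 5.09%. With no peak of the other target within 1000 bp, CTBP2-only sites were 4.58%. Promoter shares were 33.3%, 7.66% and 11.2% within 2500 bp of a start, 34.8%, 9.46% and 8.36% with starts of genes of every type and, chosen after seeing the data, 35.6%, 6.40% and 7.37% with starts of every protein-coding transcript. The cause of these shifts was not tested.

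With the replicate number as a block (libraries of equal number compared and averaged), shared sites were 65% of EVI1 and 66.9% of CTBP2 sites and rank agreement was 0.562. Samples with the same number did not deviate together, with a correlation of -0.399 between the differences of replicates 1 and 2 of the targets, and the labels state no shared batch, so the numbers were not taken to pair the samples. With crossed numbers, a pairing chosen after seeing the data, 69.0% of EVI1 and 72.9% of CTBP2 sites were shared.

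Motif shares fell in windows of 50 bp on either side of the summit, to 30.5% for CACCTG at CTBP2-only and 11.5% at EVI1-only sites. With 2 libraries a target no comparison of the targets could pass a threshold of 0.05, and without read counts the depth behind an absent peak is unknown.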
